A study of Caenorhabditis elegans with 14 samples.

Results

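Many predicted genes of *Caenorhabditis elegans* are known only by the name of the cosmid or clone they were found on, such as F46F2.3, and carry no gene symbol. Of the 41560 genes in a transcript table of whole adults, 18060 had such a sequence name, and 112 of them fell at least 4-fold between Day 0 and Day 7 of adulthood in both strains of the study. Those 112 genes are described here. They were chosen on the measured values: 11746 of the sequence-named genes had a longest transcript of at least 200 bases, 7962 of these were above 0 in all 7 libraries, and 4194 of these had a mean of at least 5 FPKM over the Day 0 libraries. FPKM counts sequenced fragments relative to transcript length and to the mapped reads of a library, and 0.5 was added to each gene's summed FPKM before any ratio was taken. A gene counted as fallen where the lower of the 2 Day 0 libraries of a strain was at least 4 times its Day 7 library, which held in both strains for 115 genes. F28H7.3, F42G4.5 and F53A9.2 were then left out because they were at least 2-fold higher in *mir-60;spe-9* animals than in *spe-9* at Day 0. Another 169 sequence-named genes passed the limits on length and Day 0 level and were set aside for an exact 0 in some library.

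The animals were *spe-9* single mutants, carrying the temperature-sensitive sterile allele *spe-9(hc88)*, and *mir-60;spe-9* double mutants, which carry the same allele and the deletion allele *mir-60(n4947)* of an intestinal microRNA gene. SPE-9 is a sperm protein needed at fertilization, so that animals grown at the restrictive temperature, 23.5 °C, leave no progeny whose RNA would mix with that of ageing adults. Both strains were raised from eggs for 68 hours to young adulthood, called Day 0, and 2 independent RNA preparations of each strain were sequenced there, before any drug was given. From Day 0 on, the animals of the later libraries were kept on 5 mM paraquat, which generates superoxide, together with 325 µM FUDR (5-fluorodeoxyuridine), an inhibitor of DNA replication. Each strain had 1 such library at Day 7, and the double mutants had another at Day 10. By the study's lifespan assay on paraquat, Day 7 lay near the median survival time of *spe-9*. That of the double mutants lay near Day 10. At Day 7 the strains thus had the same age but stood at unlike points of their survival, which cannot be told apart from genotype. Age, paraquat and FUDR therefore changed together between Day 0 and Day 7 and cannot be told apart. Since whole animals were sequenced, fewer cells of a type and less RNA per cell cannot be told apart either. The 7 libraries held an estimated 49600000 to 62400000 mapped reads, a depth worked back from the FPKM values. The study's own totals, which include unmapped reads, are higher. Its counts of mapped reads lie slightly above these estimates in every library. *mir-60* was listed at 0 FPKM in all 7 libraries, so its level did not check the strain labels.

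Young adults at Day 0 have recently completed the last molt. The hypodermis, the epidermal layer under the cuticle, makes collagens in waves with each molt, while the intestine serves as the main organ of digestion, fat storage and contact with bacteria. Sequence names were assigned when the genome was annotated and were replaced by a symbol once a gene was studied or placed in a family, so a gene with a sequence name in these data may have been named since. Against the RefSeq annotation of WBcel235, 110 of the 112 genes were matched by name, all of them as protein coding, and 31 now carry a symbol. The share with a current symbol was 27.7% among the 112 genes and 26.3% among the 4194 sequence-named genes past the same filters. The median coding length was 979.5 bases, with a range from 210 to 6687, beside a median of 915 over all sequence-named genes past the filters. 

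The fall itself is a description, because it chose the genes. Over the 112 genes the median ratio of the lower Day 0 library to Day 7 was 8.92 in *spe-9* and 8.45 in the double mutants, and 42 genes fell more than 10-fold in both strains, 20 more than 20-fold and 5 more than 50-fold. Among all 8930 genes past the same filters, whether named by symbol or sequence, 3.03% fell at least 4-fold in both strains. The share was 2.74% among sequence-named genes, the 3 left out included, and 3.29% among the 4736 genes that the table gives by symbol. Mean Day 0 levels of the 112 genes ran from 5.13 to 1945 FPKM, with a median of 29.2, and 29 genes were above 100 FPKM. Their median level was 29.5 and 26.2 FPKM in the Day 0 *spe-9* libraries and 32.9 and 30.7 in those of the double mutants. At Day 7 it was 1.73 and 1.69 FPKM in the respective strains, and at Day 10 it was 1.34 in the double mutants. The plot of all members by library shows the Day 0 libraries of both strains at like levels and the later libraries far below them.

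**Figure D1:**
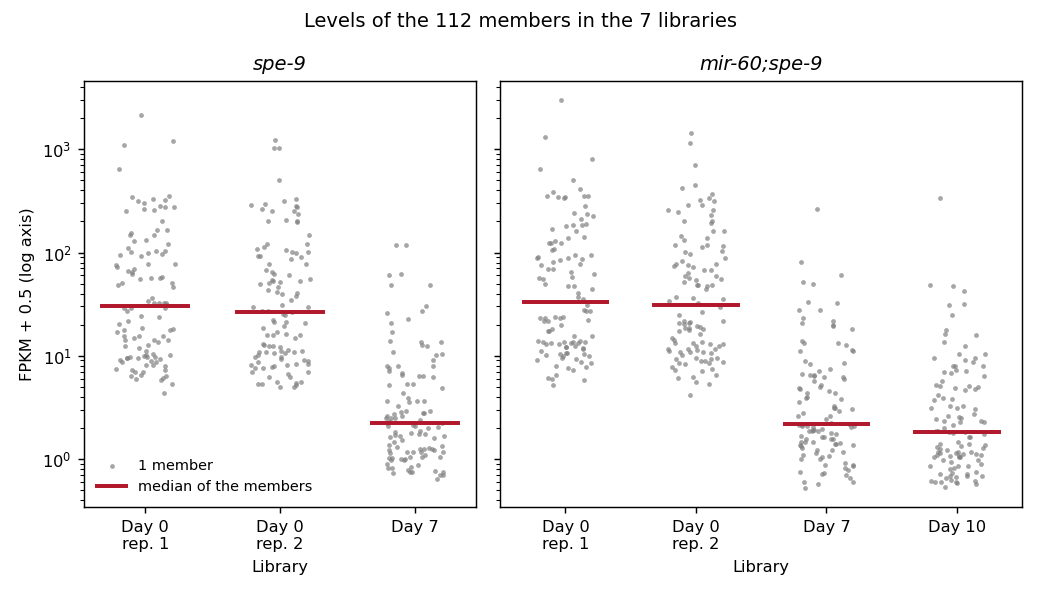
Levels of the 112 genes (FPKM + 0.5, log axis) in each of the 3 *spe-9* and 4 *mir-60;spe-9* libraries. Each point is 1 gene and the red bars are the medians. The medians without the added 0.5 are 26.2 to 32.9 FPKM in the Day 0 libraries, 1.73 and 1.69 at Day 7 and 1.34 at Day 10.

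Genes lay close on both sides of the 4-fold limit. Just inside were F26E4.3 with a smaller fall of 4.03-fold, F47B7.7 (*marg-1*) with 4.03-fold and F53H4.2 with 4.05-fold. Just outside were C45E5.1 with 3.99-fold, Y40H7A.10 with 3.95-fold and CD4.10 with 3.90-fold.

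The largest fall was that of F46F2.3, with a transcript of 414 bases on chromosome X, from 15259685 to 15260182 on WS220, the build of the deposited table. F46F2.3 was at 255 and 201 FPKM in the Day 0 *spe-9* libraries and 239 and 203 in those of the double mutants, and at 0.716 and 0.321 in the Day 7 libraries of the same strains and 0.0923 at Day 10. The lower Day 0 level was 166 times the Day 7 level in *spe-9* and 248 times in the double mutants, a ratio limited by the added 0.5. About 2146 to 2928 reads per Day 0 library stood against about 8 and 4 at Day 7 and 1 at Day 10. The strains overlapped at Day 0, and all 4 Day 0 libraries lay far above the 3 later ones.

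Next came Y69H2.14, whose current symbol is *col-42*, a collagen of the cuticle. It had 332 and 297 FPKM in *spe-9* and 507 and 425 in the double mutants at Day 0. At Day 7 it was at 2.2 and 3.4 FPKM, 109.9-fold and 109-fold below the lower Day 0 library, and at 2.23 FPKM at Day 10. It was the one *col* gene of the 112, since the other *col* genes are given by symbol in the table. Of the 44 *col* genes past the filters, *col-42* included, 35 fell at least 4-fold in both strains. The list of cuticle and hypodermis markers, which consists mostly of those genes, summed to between 31381 and 39479 FPKM at Day 0 and to 1008, 1206 and 1397 FPKM in *spe-9* at Day 7 and the double mutants at Day 7 and Day 10.

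T13F3.6, on chromosome V, was at 355 and 286 FPKM in *spe-9* and 354 and 259 in the double mutants at Day 0, and at 2.44 and 1.37 at Day 7, falls of 97.4-fold in *spe-9* and 139-fold in the double mutants. It went on to 0.441 FPKM at Day 10, about 7 reads. T05E12.6 was at 45.8 and 41 FPKM in *spe-9* and 43.8 and 35.8 in the double mutants at Day 0 and at 0.246 and 0.0921 at Day 7. ZK593.3 was at 146 and 120.2 FPKM in *spe-9* and 122 and 103 in the double mutants at Day 0 and then at 2.33 and 1.54 at Day 7. In all 3 the strains overlapped at Day 0, and no later library held more than an estimated 39.9 reads.

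The remaining genes among the 10 largest falls were K08D12.6 (*epic-2*), F11E6.3 (*epic-1*), T25F10.6 (*clik-1*), Y38H6C.23 and Y39B6A.1, with falls between 30.7-fold and 67-fold. Both *epic* genes past the filters were thus among the largest falls. *epic-2* was at 96.4 and 101 FPKM in *spe-9* and 186 and 138 in the double mutants at Day 0, at 1.12 and 1.57 at Day 7 and at 0.607 at Day 10. *epic-1* was at 266 and 273 FPKM in *spe-9* and 347 and 259 in the double mutants, then at 3.88 and 5.14, and at 2.64 at Day 10. Y38H6C.23 went from 68.6 and 60.7 FPKM in *spe-9* and 129.9 and 96.9 in the double mutants to 1.15 and 1.34. Y39B6A.1 went from 163 and 201 FPKM in *spe-9* and 162 and 160.1 in the double mutants to 3.05 and 4.73. In each of these 5 genes both Day 0 libraries of a strain were more than 30 times its Day 7 library, with 0.5 added.

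**Figure D2:**
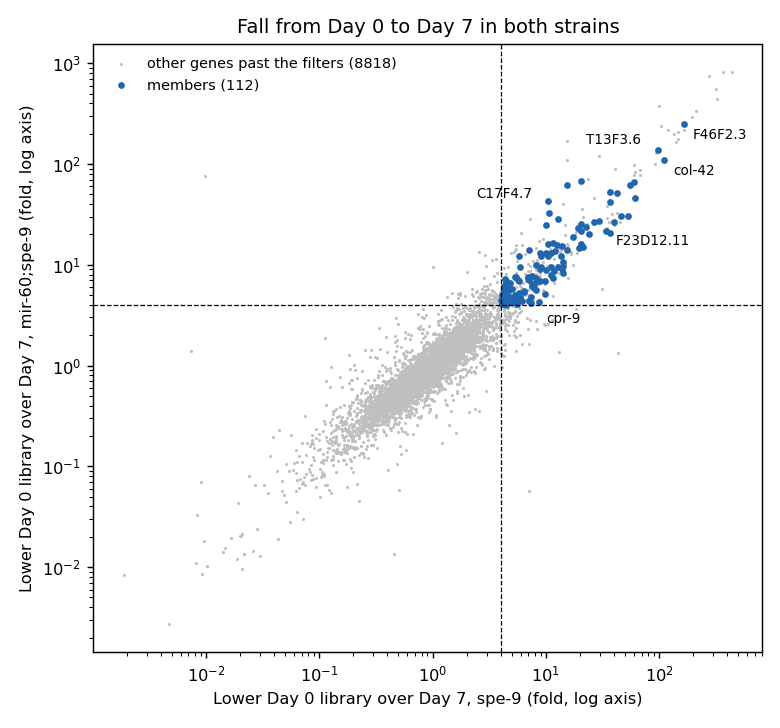
Ratio of the lower Day 0 library to the Day 7 library in *spe-9* (x axis) and *mir-60;spe-9* (y axis), both on log axes, for the 112 genes (blue) and the other genes past the filters (grey); dashed lines mark 4-fold. Grey points in the upper right corner are genes given by symbol and the 3 left out for their strain difference, and F46F2.3 lies highest among the 112 at 166-fold and 248-fold.

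The rule required a fall of at least 4-fold in each strain, so the likeness of the strains was in part set by the choice of genes. Over the 112 genes, the log2 changes from mean Day 0 to Day 7 had a Pearson correlation of 0.89 between strains, beside 0.92 over all 8930 genes, a description across genes within the same few libraries. The median log2 change was -3.24 in each strain. The fall was larger in the double mutants for 57 genes and larger in *spe-9* for 55. In 7 genes the 2 changes differed by more than 2-fold, in each with the larger fall in the double mutants: C17F4.7, K12H4.7, Y51F10.7, E02H4.7, B0272.4, C05D12.3 and K10C2.8. Among all 8930 genes, 2.37% had a change that far lower in the double mutants and 1.40% that far higher. With 1 library per strain at Day 7, these differences have no replicate check, and the strains stood at unlike points of their survival there.

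The most abundant of the 112 genes at Day 0 was C17F4.7, on chromosome II from 3245173 to 3245989. C17F4.7 was at 2155 and 1225 FPKM in the Day 0 *spe-9* libraries and 2979 and 1424 in those of the double mutants, and at 117 and 32.8 in the Day 7 libraries of the same strains and 30.9 at Day 10. Its 2 Day 0 replicates were wide apart, by 1.76-fold in *spe-9* and 2.09-fold in the double mutants, replicate 1 being the higher in each. At Day 7 it was 3.52-fold lower in the double mutants than in *spe-9*, the lowest strain ratio of all 112 genes, and it stayed there at Day 10.

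F57F5.1, now *cpr-9*, on chromosome V from 12003213 to 12004362, encodes a cysteine protease of the cathepsin B-like kind. *cpr-9* was at 1109 and 1041 FPKM in the Day 0 *spe-9* libraries and 1327 and 1145 in those of the double mutants, and at 119 and 266 in the Day 7 libraries of the same strains and 340.4 at Day 10. It fell 8.72-fold in *spe-9* and 4.29-fold in the double mutants, and its level at Day 7 and at Day 10 was the highest of the 112 genes in the double mutants. Its Day 7 libraries differed by 2.23-fold between strains, with the double mutants the higher, and at Day 10 the level was 1.28 times that of Day 7. Of the 7 *cpr* genes past the filters, 4 fell at least 4-fold in both strains, *cpr-9* included.

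F23D12.11, with 273 bases one of the 7 genes shorter than 350 bases for which FPKM depends strongly on the assumed fragment length, was at 1198 and 1028 FPKM in *spe-9* and 805 and 699 in the double mutants at Day 0. It was at 29.6 and 31.6 at Day 7 and 6.6 at Day 10, and was the gene with the largest further fall. Y105C5B.5 was at 639 and 505 FPKM in *spe-9* and 645 and 449 in the double mutants at Day 0 and kept 60.7 and 80.3 at Day 7. Among the 10 most abundant genes at Day 0, the levels left at Day 7 thus ranged from a few FPKM (T13F3.6 and *col-42*) to over 100 (*cpr-9*).

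Several of the 31 genes with a symbol are enzymes. F09F7.4 (*hach-1*) and Y38F1A.6 (*hphd-1*) encode a hydrolase and a dehydrogenase of the propionate shunt, the route by which *C. elegans* breaks down propionate when vitamin B12 is short. *hach-1* was at 345 and 331 FPKM in *spe-9* and 389 and 372 in the double mutants at Day 0, and at 61.1 and 48.8 at Day 7, falls of 5.38-fold in *spe-9* and 7.55-fold in the double mutants. *hphd-1* was at 314 and 314 FPKM in *spe-9* and 342 and 322 in the double mutants at Day 0 and then at 26.5 and 19.3 at Day 7, falls of 11.6-fold in *spe-9* and 16.3-fold in the double mutants. Both were lower still at Day 10, at 42.2 and 17.4 FPKM. Of the 5 genes of the shunt, listed after the values were seen, 3 fell at least 4-fold in both strains: these 2 and *acdh-1*, the acyl-CoA dehydrogenase at its entry, which fell 119-fold in *spe-9* and 217-fold in the double mutants. The hydratase *ech-6* had ratios of 3.65 and 4.32 and so missed the limit in *spe-9*, while the last enzyme, *alh-8*, was higher at Day 7 than at Day 0. None of the 4 genes of the B12-dependent route (*pcca-1*, *pccb-1*, *mce-1* and *mmcm-1*) reached 4-fold in both strains, their ratios lying between 0.943 and 1.58.

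C48B4.1 (*acox-1.5*) and F08A8.4 (*acox-1.4*) belong to the acyl-CoA oxidases, which start fatty acid side chain shortening in peroxisomes. *acox-1.5* was at 6.41 and 5.07 FPKM in *spe-9* and 7.48 and 5.68 in the double mutants at Day 0, at 0.587 and 0.89 at Day 7 and 0.209 at Day 10. *acox-1.4* was at 8.86 and 8.38 FPKM in *spe-9* and 13.3 and 12.6 in the double mutants, then at 0.497 and 0.947, and at 0.565 at Day 10. They were the 2 of 4 *acox-1* genes past the filters that fell 4-fold in both strains. The neighbours K09H11.7 (*pgph-1*) and C53A3.2 (*pgph-3*), named as phosphoglycolate phosphatase homologs, lay within 10 kb on chromosome V and fell 4.49-fold in *spe-9* and 4.16-fold in the double mutants for *pgph-1* and 8.06-fold in *spe-9* and 6.53-fold in the double mutants for *pgph-3*. The other enzymes by symbol were *ctsa-1.2* (F13D12.6, a cathepsin A homolog), *papl-1* (F18E2.1) and *cest-12* (Y75B8A.3, a carboxylesterase-like gene), with falls between 4.35-fold and 6.9-fold. *ctsa-1.2* still stood at 48.2, 51.5 and 48.3 FPKM in the 3 later libraries, so a 4-fold fall left it well above most of the 112 genes.

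A second group by symbol is named for responses to microbes or diet. F40F4.6 (*irg-7*) and ZK6.11 (*irg-8*) are infection response genes, and F57F4.4 (*bcf-1*) is named for bacterial colonization. *irg-7* was at 35.9 and 43 FPKM in *spe-9* and 57.3 and 51.2 in the double mutants at Day 0, at 2.76 and 5.95 at Day 7 and 2.74 at Day 10. With 0.5 added, its Day 7 level in the double mutants was 1.98 times that in *spe-9*. Its double mutant libraries were thus above those of *spe-9* at both ages. *irg-8* was at 102 and 92.8 FPKM in *spe-9* and 106 and 76.7 in the double mutants, then at 6.31 and 5.81, and at 7.48 at Day 10. The strains overlapped at Day 0 in *irg-8*. *bcf-1* was at 56 and 53 FPKM in *spe-9* and 76.6 and 76 in the double mutants, then at 3.36 and 4.48, and at 1.79 at Day 10, 2.17-fold below Day 7. Of 6 *irg* genes past the filters, only these 2 fell 4-fold in both strains. The 3 *drd* genes past the filters, named as down-regulated by dietary restriction, all belonged to the 112: *drd-1* (F49E12.9), *drd-5* (F55E10.6) and *drd-10* (C33G8.3). They had low Day 0 levels, between 4.45 and 12.3 FPKM, and between 0.224 and 0.718 FPKM at Day 7.

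Further symbol families were represented by several genes. Only families that held some of the 112 genes were counted, so nothing is read from these counts. All 3 *hrg-11* genes past the filters were among the 112, namely *hrg-11.2* (F28B4.3), *hrg-11.3* (T25C12.3) and *hrg-11.4* (ZK1193.2), all on chromosome X. *hrg-11.3* was at 17.2 and 20.5 FPKM in *spe-9* and 26.6 and 26 in the double mutants at Day 0 and at 0.372 and 0.555 at Day 7, falls of 20.2-fold in *spe-9* and 25.1-fold in the double mutants. *hrg-11.2* fell 11-fold in *spe-9* and 13.2-fold in the double mutants, and *hrg-11.4* fell 4.57-fold in *spe-9* and 4.85-fold in the double mutants. *hrg-11.2* lay next to *irg-7*, less than 10 kb away. Of the 9 *nspg* genes past the filters, which encode nematode-specific peptides, 4 were among the 112. *nspg-9* (LLC1.2) was the most abundant of them, at 304 and 250.2 FPKM in *spe-9* and 338 and 288 in the double mutants at Day 0, and at 12.2 and 19 at Day 7, and the other 3 were *nspg-6* (F56C9.7), *nspg-10* (F19C7.1) and *nspg-14* (Y34B4A.6), with falls between 4.1-fold and 16.2-fold. *spig-20* (C45B2.1) and *spig-17* (F40H3.2) were 2 of 11 *spig* genes past the filters.

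*clik-1* (T25F10.6) encodes a calponin-like protein of muscle. It was at 275 and 234 FPKM in *spe-9* and 350.01 and 312.99 in the double mutants at Day 0, and at 5.91 and 6.99 at Day 7, falls of 36.6-fold in *spe-9* and 41.8-fold in the double mutants. At Day 10 it was at 8.98 FPKM. Beside it, 3 of 6 body wall muscle markers (*unc-15*, *unc-27* and *unc-54*) fell at least 4-fold in both strains, by between 15.3-fold and 38.1-fold. The summed level of that list was 1699 to 2308 FPKM at Day 0 and 241, 324 and 406 FPKM in the later libraries. *zig-12* (M02D8.1), of a family of immunoglobulin domain proteins, fell 7.48-fold in *spe-9* and 6.11-fold in the double mutants, and *marg-1* (F47B7.7) fell 4.03-fold in *spe-9* and 4.48-fold in the double mutants.

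**Figure D3:**
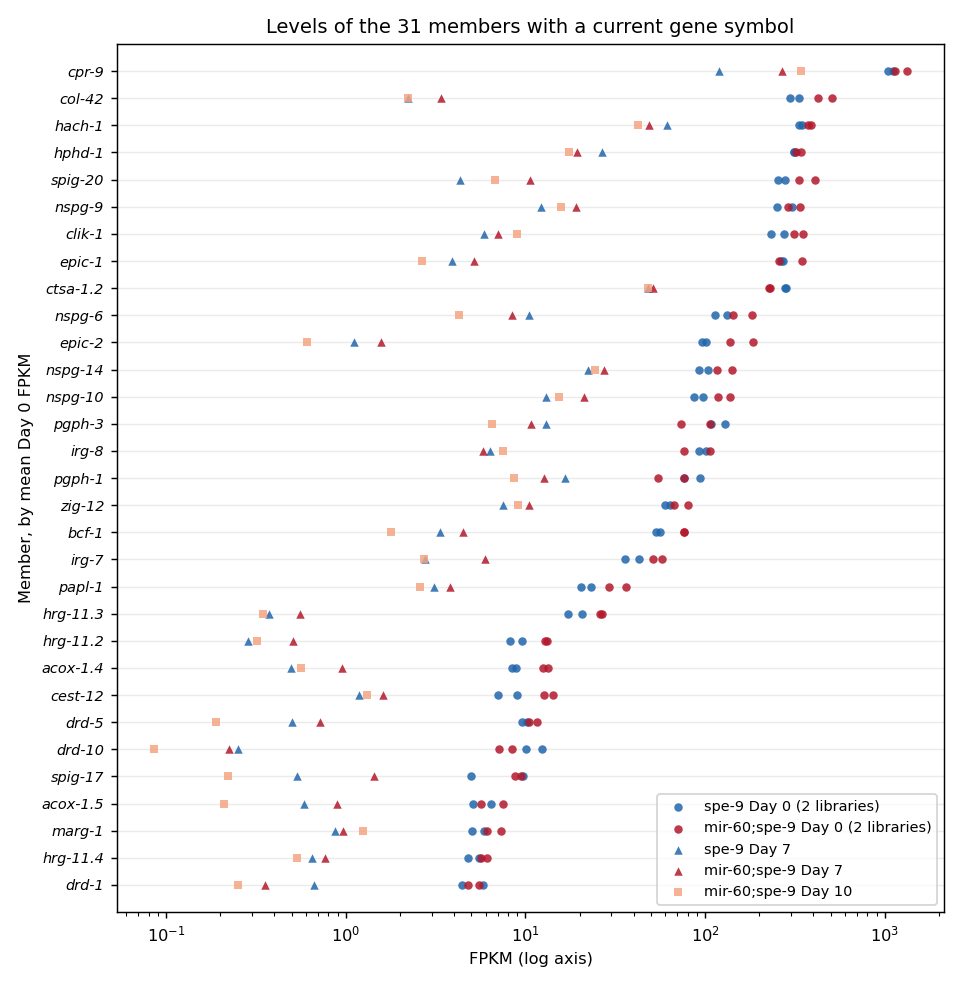
FPKM (log axis) of the 31 genes that now carry a symbol, 1 row per gene in order of mean Day 0 level, with a point for each of the 7 libraries (circles Day 0, triangles Day 7, squares Day 10). In every row the 4 Day 0 points lie to the right of the 3 later ones, and *cpr-9* has the highest and *drd-10* the lowest Day 10 level of the 31.

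Marker lists of the other tissues of a whole animal were read in the same way. None of the sperm (11 past the filters), oocyte and eggshell (13), germline (10), molting (4), pharynx (6), neuron (6) and somatic gonad (2) markers fell 4-fold in both strains. Smaller falls were seen: the median log2 change was -1.22 in *spe-9* and -1.40 in the double mutants for oocyte and eggshell markers. It was -1.39 and -2.25 for molting and 0.22 and -1.26 for sperm. The germline, pharynx, neuron and somatic gonad medians lay between -0.33 and 0.50. Of 7 intestine markers, *act-5* and *pho-1* fell 4-fold in both strains. The median log2 change of that list was -0.97 in *spe-9* and -1.08 in the double mutants. *ges-1*, *ifb-2* and *cpl-1* fell less, with ratios of lower Day 0 to Day 7 between 1.43 and 3.77. *elt-7* had ratios of 0.838 and 0.624, and *asp-1* went from at most 1064 FPKM at Day 0 to 4807 and 5531 FPKM at Day 7. The lists with 3 or more genes past the limit were thus those of cuticle and muscle, and whether they share cells with the 112 genes was not tested.

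On the chromosomes the 112 genes were unevenly placed. Chromosome V held 37 of them (33.04%) beside 18.3% of the 4194 sequence-named genes past the filters, and chromosome X held 25 (22.3% beside 12.9%). Chromosome I held 7 (6.25% beside 18.1%). The counts are a description, since the genes were chosen on their values. In 7 places 2 or 3 of the genes lay within 10 kb of each other, 16 genes in all. W10G11.1, W10G11.2 and W10G11.3 followed each other on the minus strand (in WBcel235) of chromosome II, from 3559709 to 3562568. K08D8.3, K08D8.4 and K08D8.5 followed each other on the minus strand of chromosome IV from 12904172 to 12912085.

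In the W10G11 run, W10G11.1 was at 5.28 and 6.42 FPKM in *spe-9* and 8.17 and 10.5 in the double mutants at Day 0 and at 0.204 and 0.367 at Day 7. In it both double mutant libraries were above both of *spe-9* at Day 0. W10G11.2 was at 21 and 16.3 FPKM in *spe-9* and 17 and 12.8 in the double mutants at Day 0 and then at 0.676 and 1.12 at Day 7. W10G11.3 was at 28.4 and 21.6 FPKM in *spe-9* and 27.4 and 18.2 in the double mutants at Day 0 and then at 0.258 and 0.193 at Day 7, with the largest fall of the run, 29.2-fold in *spe-9* and 27-fold in the double mutants. By Day 10 W10G11.2 was at 0.107 FPKM while W10G11.1 was at 0.475, about 2 against 9 reads, so that the neighbours no longer kept their order of Day 7. In the K08D8 run the strains went apart at Day 0. K08D8.3 was at 9 and 9.27 FPKM in *spe-9* and 21.2 and 19 in the double mutants, and K08D8.4 at 5.61 and 5.71 FPKM in *spe-9* and 11.4 and 7.77 in the double mutants, both higher in each double mutant library. K08D8.5 was at 9.08 and 7.46 in *spe-9* and 5.56 and 3.62 in the double mutants, the reverse order. At Day 7 the 3 genes were at 0.54, 0.551 and 0.316 FPKM in *spe-9* and 1.54, 1.06 and 0.101 in the double mutants.

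Of the 112 genes, 28 overlap an exon of a gene on the opposite strand and 3 an exon of one on the same strand in WBcel235. T13F3.6, F23D12.11, Y105C5B.5, *clik-1*, *nspg-6*, *nspg-9*, *nspg-10*, *ctsa-1.2*, *acox-1.4*, *drd-10*, *marg-1*, K12H4.7, T23E7.2 and Y47G6A.33 are among the first, and C05D12.3 is one of the others. The libraries kept strand, but whether the estimation of FPKM used it is not given in the sources used here, so for these genes reads from the partner cannot be told apart.

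Day 10, sampled in the double mutants alone, bears on whether the fall went on after Day 7. Every one of the 112 genes was below its mean Day 0 level at Day 10, and 110 were still at least 4-fold below the lower Day 0 library, beside 6.36% of all 8930 genes. The 2 exceptions were *cpr-9*, at 3.36-fold, and *marg-1*, at 3.75-fold. The rule had used the same Day 0 libraries, so this count was largely set by the choice of genes. Nothing is read from its distance to the share of all genes. Between Day 7 and Day 10 the median log2 difference was -0.35, with 91 genes lower and 21 higher. All 8930 genes had a median of -0.25 in the same comparison, with 72.2% of them lower and 27.8% higher at Day 10. Relative to that median 69 of the 112 genes were lower and 43 higher. At least 2-fold lower at Day 10 were 14 of the 112 genes, beside 3.95% of all genes, and at least 2-fold higher was 1, beside 0.705%. Once each library was centred on its median, which moves Day 10 against Day 7 by 0.22 on the log2 scale, 7 were 2-fold lower. Over all settings tried the count was 6 to 25. The remaining 97 genes stayed within 2-fold. The Day 7 library had a part in choosing the genes and each day had 1 library, so nothing was tested.

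F23D12.11 had the largest further fall, from 31.6 to 6.6 FPKM, 4.52-fold. C12D12.1 went from 4.25 to 1.34 FPKM, with about 486 and 135 reads behind the values, and Y47G6A.33, another short gene, from 17.6 to 6.29 FPKM. *spig-17* and W10G11.2 also ranked among the 5 lowest, but on about 2 reads each at Day 10. The one gene over 2-fold higher was R02C2.7, which went from 0.66 to 1.84 FPKM, about 7 and 17 reads. After it came C46G7.2, from 5.71 to 9.89 FPKM, B0272.4, from 1.39 to 2.56, then *cpr-9* and *irg-8*. All 5 stayed below Day 0, where the levels in the double mutants were 14.9 and 17.2 FPKM for R02C2.7, 88.5 and 75.7 for C46G7.2 and 48.6 and 46.8 for B0272.4.

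**Figure D4:**
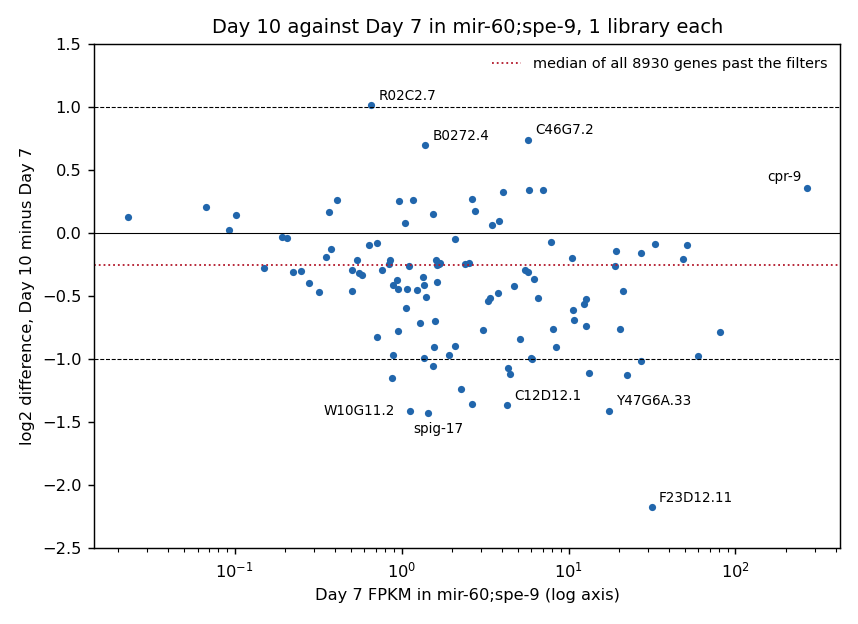
Difference between the Day 10 and the Day 7 library of the double mutants (log2 of FPKM + 0.5, y axis) against the Day 7 level (FPKM, log axis) for the 112 genes. Dashed lines mark 2-fold and the dotted line the median of all 8930 genes past the filters, -0.25. Most points lie below 0, R02C2.7 alone is past 2-fold upward, and F23D12.11 is the lowest at -2.17.

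At Day 7 the strains were compared in 1 library each, at the same age but at unlike points of their survival. Both libraries had a part in choosing the genes, whose median levels there were only 1.73 FPKM in *spe-9* and 1.69 in the double mutants. Nothing was tested, and nothing is read from the counts set beside all genes. The median log2 difference between the double mutants and *spe-9* was 0.17 over the 112 genes, with 76 above and 36 below 0, and -0.04 over all 8930 genes. At least 2-fold higher in the double mutants were 4 of the 112 genes, beside 2.19% of all genes, and 5 were at least 2-fold lower, beside 0.829%. Other pseudocounts and scalings gave 3 to 10 higher and 2 to 8 lower. The other 103 were within 2-fold. Those higher were *spig-20*, C12D12.1, *cpr-9* and T23E7.2. *spig-20* was at 4.32 FPKM in *spe-9* and 10.6 in the double mutants at Day 7, after 280.1 and 253 FPKM in *spe-9* and 409.7 and 335 in the double mutants at Day 0. C12D12.1 was at 1.6 and 4.25 FPKM at Day 7, and T23E7.2 at 1.34 and 3.5. By Day 10 C12D12.1 was at 1.34 FPKM in the double mutants, below the Day 7 level of *spe-9*, whereas T23E7.2 was still at 3.68.

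Those lower in the double mutants were C17F4.7, Y51F10.7, K10C2.8, E02H4.7 and K12H4.7, which also stood among the 7 genes with a larger fall in that strain. Y51F10.7 was at 4.72 FPKM in *spe-9* and 1.17 in the double mutants at Day 7, about 94 and 26 reads, after 153 and 106 FPKM in *spe-9* and 167 and 113 in the double mutants at Day 0, where its strains overlapped. K12H4.7 was higher in the double mutants at Day 0, with 234.7 and 194.3 FPKM against 119.9 and 98 in *spe-9*, and lower at Day 7, with 2.63 against 5.86. In the rest of the group, K10C2.8 was at 1.61 FPKM in *spe-9* and 0.38 in the double mutants at Day 7, and E02H4.7 at 0.674 and 0.0671, about 9 reads against 1. In all 5 the Day 10 level in the double mutants was again below that of *spe-9* at Day 7. Leaving out genes with an estimate under 10 reads in either library, 3 of 91 were at least 2-fold lower in the double mutants. K10C2.8 was left out on an estimate of 9.99 reads in the double mutants, about 10 whole reads. Genes under 350 bases, which have no read estimate, were left out as well.

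At Day 0 each strain had 2 libraries, and the strain comparison was fitted with limma over 12192 genes. It called 168 genes higher and 36 lower in the double mutants at an adjusted p under 0.05. Among the 112 genes 2 were called higher, beside 1.38% of all genes, and 0 lower, beside 0.295%. At an unadjusted p under 0.05, limma had 42 of the 112 higher, beside 12.5% of all genes, and 8 lower, beside 4.49%. With the replicate number as a block, limma called 39 of the 112 higher, beside 11.9%, and 9 lower, beside 2.12%, at an adjusted p under 0.05. The sources give the number but do not state that same-numbered libraries of the strains were prepared together. The study took strain ratios within replicates, and its quantitative PCR, on preparations that included those sequenced, used paired t-tests. Deviations of same-numbered libraries had a correlation of 0.35 over all genes tested and 0.57 over the 112. Which of the 2 fits is the better was not tested. Since genes at least 2-fold higher in the double mutants had been left out of the 112, nothing is read from these counts. The 2 genes were B0272.4, at 28.5 and 26 FPKM in *spe-9* and 48.6 and 46.8 in the double mutants, and K08D8.3, whose lower double mutant library was just short of 2 times its higher *spe-9* library. Neither remained called without either *spe-9* library in turn, where 0 of the 112 genes were called. Without replicate 1 of the double mutants 1 gene was called, and without replicate 2 of the double mutants 6 were, all higher. B0272.4 reversed its order at Day 7, with 2.13 FPKM in *spe-9* and 1.39 in the double mutants.

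Without a test, both double mutant libraries were above both *spe-9* libraries at Day 0 in 62 of the 112 genes, beside 23.3% of all genes, and below both in 15, beside 30.8%. In 35 genes the strains overlapped. The median log2 difference of the Day 0 means was 0.21, beside -0.03 over all 8930 genes. Replicate 1 was above replicate 2 in 88 of the 112 genes in *spe-9* and in 96 in the double mutants, and in both strains in 78, while among all genes the shares were 62.8% and 50.8%. The larger replicate was a median of 1.15 times the smaller in *spe-9* and 1.16 times in the double mutants. The widest gap was that of F57H12.6, singled out after its values were seen, with 5.30 and 21.3 FPKM in the 2 double mutant libraries. The summed level of the 8 molting markers moved in the same order, with 59.0 and 38.9 FPKM in replicates 1 and 2 of *spe-9* and 109 and 67.7 in those of the double mutants. One of them, *nas-36*, was higher in replicate 2 of the double mutants. The order was not particular to molting. Body wall muscle markers summed to 1809 and 1699 FPKM in *spe-9* and 2308 and 2103 in the double mutants, and pharynx markers to 145 and 122, then 175 and 149. The oocyte and eggshell, germline and somatic gonad sums were higher in replicate 2 of both strains. None of the molting markers was at 0 in all libraries, 4 of 8 passed the filters, and the part of these lists in the Day 0 differences was not tested. The sum of the 49 sperm markers was 103 and 99.0 FPKM in *spe-9* and 319 and 221 in the double mutants, and its part was not tested either.

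**Figure D5:**
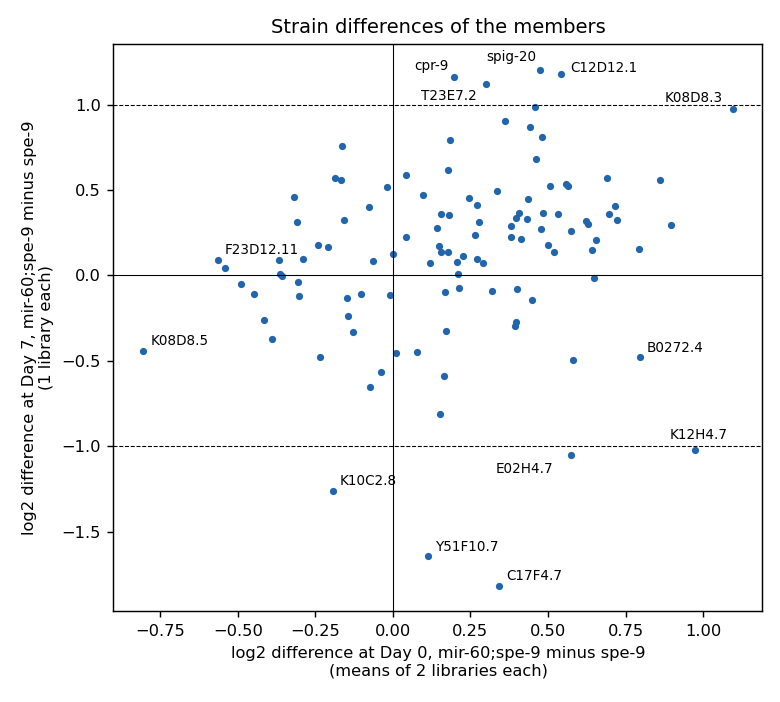
Difference between *mir-60;spe-9* and *spe-9* on the log2 scale (FPKM + 0.5) at Day 0 (x axis, means of 2 libraries each) and at Day 7 (y axis, 1 library each) for the 112 genes. Dashed lines mark 2-fold at Day 7. At Day 0, 79 genes lie to the right of 0, and at Day 7 the 5 genes below -1 include C17F4.7, the lowest at -1.82.

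The rule for naming genes singled out 58 of the 112. The other 54 had mean Day 0 levels from 5.27 to 202 FPKM, with a median of 17.6, and fell by 4.09-fold to 40.02-fold in *spe-9* and by 4.07-fold to 26.8-fold in the double mutants. Their Day 10 levels were 0.390 to 1.25 times those of Day 7, and their Day 7 levels in the double mutants were 0.569 to 1.82 times those in *spe-9*. Genes with and without a current symbol had median ratios of lower Day 0 to Day 7 of 8.91 and 8.92 in *spe-9* and 8.01 and 8.66 in the double mutants, while the median Day 0 level was 74.9 FPKM for the 31 with a symbol and 22.1 FPKM for the other 81.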

How the data were processed

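RNA of whole animals was sequenced in single-end reads of 100 bases from 7 libraries, each in 2 runs that were merged. Per the labels and methods, the authors used Bowtie 2.1.0 within TopHat 2.1.0 for alignment to WS220, and deposited FPKM per RefSeq transcript from Cufflinks 2.2.1. FPKM of a gene's transcripts were summed and 0.5 was added, so folds of low genes are understated. Genes were grouped and compared as described above with Python 3.11.15 and pandas 2.3.3. The Day 0 strain difference was fitted on log2 values with limma 3.58.1 in R 4.3.3 (variance trend, Benjamini-Hochberg adjustment, genes of at least 200 bases and a mean Day 0 FPKM of at least 1). The fit was also run on simulated data with independent noise. Those data had no effect shared by same-numbered libraries, so the run cannot decide between the fits with and without the block. The p-values of the fit measure the spread between RNA preparations. Day 7 and Day 10 have 1 library per strain and were described with no test.

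The study's own test used read counts, which were not used here. Depth was estimated from low FPKM values, which fall on steps of whole reads: 93.3% to 94.2% of values under 20 reads lay within 0.1 of a whole number. Read numbers are such estimates, given for the 105 genes of at least 350 bases. The genes and all lists were chosen with earlier results of these data known. Genes were named where they were among the 10 highest at Day 0, the 10 largest falls, the 5 extremes either way at Day 10 or between strains at Day 7, called at Day 0, nearest the 4-fold limit, in runs of 3 within 10 kb, or carrying a current symbol. Grouping by protein similarity was not done. Coordinates are those of the table on WS220. Gene symbols, biotypes, coding lengths and overlaps come from WBcel235. Alternatives changed the pseudocount, scaling, transcript summing, limits, folds and replicates.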

Additional observations from a re-analysis of the deposited data

How the results depend on the processing

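The number of genes meeting the rule was 112 and stayed within 1.5 times under 15 of 16 alternatives, except at 67 with a 6-fold limit. Leaving out 1 Day 0 library at a time gave 113 to 119 genes, of which at least 111 were among the 112. With genes at an exact 0 kept, an alternative chosen after seeing the data, 128 genes met the rule. Median log2 changes from Day 0 to Day 7 went to -3.70 in *spe-9* and -3.63 in the double mutants with a pseudocount of 0.1, to -2.88 and -2.92 with 1, and to -3.62 and -3.07 with quantile normalization. Without 1 Day 0 library they ranged from -3.30 to -3.20 and from -3.30 to -3.14. The Day 10 median against Day 7 was -0.54 with a pseudocount of 0.1 and -0.13 after median centring. The Day 7 strain median was 0.48 after quantile normalization. None of these medians changed sign, which for those from Day 0 to Day 7 was largely set by the choice of genes.

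The counts of genes past 2-fold between single libraries moved most with the pseudocount and the scaling. Lower at Day 10 were 25 genes with a pseudocount of 0.1, 6 with 1, 7 with median centring, 8 with quantile normalization and 7 of the 83 with at least 10 reads, against 14. Higher at Day 10 was 1 gene, and 0 with a pseudocount of 1, with quantile normalization and among the 83. Higher in the double mutants at Day 7 were 8 with a pseudocount of 0.1 and 10 with quantile normalization, against 4. Lower were 8 with 0.1, 2 with 1, 3 with centring, 2 with quantile normalization and 3 of the 91 with at least 10 reads, against 5. The selection by reads was chosen after seeing the data, and K10C2.8 missed it with an estimated 9.99 reads in the double mutants at Day 7.

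In the limma fit at Day 0, which called 2 of the 112 genes higher and 0 lower, the calls higher were 0 with no filter on low values, 4 with a minimum of 10 FPKM, 1 with genes of any length, 4 with quantile normalization and 1 without the variance trend. Calls lower were 1 with median centring and 1 with quantile normalization. Leaving out 1 library gave 0 to 6 higher. With the replicate number as a replicate block, 39 were called higher and 9 lower, and 1456 and 259 of all 12192 genes. Both genes called without the block were also called with it. The labels give the shared number only, the study took strain ratios within replicates, and the deviations of same-numbered libraries had a correlation of 0.35 over all genes and 0.57 over the 112. The cause of these changes was not tested. The spread between libraries was not measured at Day 7 and Day 10, and fewer than 10 estimated reads stand behind some of the levels there.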
